A study of Mus musculus with 1 sample.

Results

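Genes for the synthesis, transport and breakdown of dopamine were examined in a mixed culture of glia from the mouse ventral midbrain (VM). The members were 9 genes chosen by symbol, namely Th, Ddc, Gch1, Slc6a3, Slc18a2, Slc22a3, Maoa, Maob and Aldh1a1. Each had a single row among the 23282 rows of the deposited table. The pups were outbred ICR (CD-1) mice at postnatal day 5, with no transgene or mutant allele named in the labels. The culture received no inhibitor of the kinase SGK1, was labelled as a control and, by the study's account, received the vehicle DMSO. Inhibitor-treated glia were not analysed here. There was 1 library and therefore no contrast, no replicate and no error between cultures for any value below. The glia were grown in serum and replated once near confluence, and how many pups were pooled was not given in the sources used here.

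Dopamine is made from tyrosine, which tyrosine hydroxylase (Th) turns into L-DOPA with tetrahydrobiopterin as cofactor, and which aromatic L-amino acid decarboxylase (Ddc) then turns into dopamine. Dopamine neurons of the midbrain load it into vesicles through VMAT2 (Slc18a2) and take it back up through the dopamine transporter DAT (Slc6a3). Glia are known for the other end of the path, in which dopamine enters through low-affinity carriers such as OCT3 (Slc22a3), is oxidised by the monoamine oxidases of the outer mitochondrial membrane (Maoa, Maob) to the aldehyde DOPAL, and is cleared further by aldehyde dehydrogenases such as Aldh1a1.

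Of the breakdown genes, Maoa and Aldh1a1 stood above the median of detected genes and Maob stood well under it. Gch1 lay between Aldh1a1 and Maob, and the 4 genes that equip a dopamine neuron (Th, Ddc, Slc6a3 and Slc18a2) lay at the bottom of the range. The authors call their values normalised read counts, and genes at 10 or above are termed detected here. By this minimum 6 of the 9 genes were detected, against 67.2% of all rows. Th, Ddc and Slc6a3 were under the minimum, although none of the 9 was listed at 0, as 21.8% of all rows were. In a bulk culture fewer cells of a type and less RNA per cell cannot be told apart.

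A few start regions are shown first: those of Th and Slc18a2, low genes of the dopamine neuron that had a motif in common, and that of Maoa, the highest member. Each is 250 bases before and 30 bases after a RefSeq transcription start in GRCm38.p6, printed 5′ to 3′ on the strand of the gene. The Th window is chr7:142899966-142900245 (minus strand), the Slc18a2 window chr19:59260628-59260907 (plus strand) and the Maoa window chrX:16619448-16619727 (plus strand). Capitals mark 3 motifs searched on both strands, the GC box (GGGCGG or CCGCCC), the cyclic AMP response element (TGACGTCA) and the TATA box (TATAAA or TTTATA), whose letters do not overlap in these windows.
Th: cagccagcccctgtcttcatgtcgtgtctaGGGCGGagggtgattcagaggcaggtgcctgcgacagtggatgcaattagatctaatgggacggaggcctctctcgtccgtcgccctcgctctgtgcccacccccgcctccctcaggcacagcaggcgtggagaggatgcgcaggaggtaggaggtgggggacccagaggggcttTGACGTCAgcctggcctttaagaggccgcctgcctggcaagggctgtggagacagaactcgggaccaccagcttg
Slc18a2: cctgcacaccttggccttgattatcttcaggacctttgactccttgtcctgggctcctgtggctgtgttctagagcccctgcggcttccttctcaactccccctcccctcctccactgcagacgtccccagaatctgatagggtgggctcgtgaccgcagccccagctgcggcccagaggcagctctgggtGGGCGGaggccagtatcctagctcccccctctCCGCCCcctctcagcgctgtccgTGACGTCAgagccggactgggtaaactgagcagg
Maoa: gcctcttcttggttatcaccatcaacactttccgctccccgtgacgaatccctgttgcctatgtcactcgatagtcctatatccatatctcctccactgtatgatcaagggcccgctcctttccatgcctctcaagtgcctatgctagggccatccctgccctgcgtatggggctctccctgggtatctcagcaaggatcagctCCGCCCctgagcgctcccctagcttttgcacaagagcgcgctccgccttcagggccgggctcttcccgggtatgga

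The cyclic AMP response element lay in the windows of Th and Slc18a2, beginning 45 and 4 bases before the start, and in no other window of the members. It was in 1.74% of the 32851 start regions in the RefSeq table. The GC box was found once in the Th window, 2 times in that of Slc18a2 and once in that of Maoa, and in 34.7% of all regions. None of the 3 windows held the TATA box, which 13.1% of all regions did. The Gch1 window (chr14:47189384-47189663, minus strand) held 2 GC boxes and a TATA box, and the Slc6a3 window (chr13:73536497-73536776, plus strand) held 3 GC boxes. The windows of Slc22a3 and of the 2 starts of Aldh1a1 held none of the motifs. Ddc had 2 starts, of which 1 had a TATA box. The table had no entry for Maob. These matches describe letters only, and binding was not measured.

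The synthesis genes were examined first. Th, which encodes the rate-limiting enzyme of catecholamine synthesis, lies on chromosome 7 (142892752 to 142931128, minus strand, ENSMUSG00000000214.11, identifiers and positions being those of GENCODE M21 on GRCm38) and had a value of 3. Ddc, shared by dopamine and serotonin synthesis, lies on chromosome 11 (11814101 to 11898144, minus strand, ENSMUSG00000020182.16) and had a value of 8. Per kilobase of annotated exon, the scale on which genes are compared below, Th was at 1.27 and Ddc at 1.79. The median detected gene had 102 per kilobase. Since both genes were under the detection minimum, their place is given over all rows, of which 26.1% had a lower value than Th and 31.4% a lower value than Ddc.

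Gch1, encoding GTP cyclohydrolase 1, which starts the synthesis of tetrahydrobiopterin, differed from the other synthesis genes. It lies on chromosome 14 (47153895 to 47189413, minus strand, ENSMUSG00000037580.10) and had a value of 460, or 73.6 per kilobase, above 42.5% of detected genes. Tetrahydrobiopterin also serves nitric oxide synthases and the other aromatic amino acid hydroxylases, so Gch1 is not restricted to dopamine neurons.

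The neuronal transporters were as low as Th and Ddc. Slc6a3 (DAT; chromosome 13, 73536747 to 73578672, plus strand, ENSMUSG00000021609.6) had a value of 7, or 2.03 per kilobase. Slc18a2 (VMAT2; chromosome 19, 59260896 to 59296012, plus strand, ENSMUSG00000025094.8) had a value of 16, or 3.06 per kilobase, and so passed the detection minimum by little. Of its exon bases, 111 (2.12%) overlap the antisense gene Gm29261. With an unknown strand setting, reads within these bases cannot be told apart from reads of that gene. Slc22a3 (OCT3; chromosome 17, 12418960 to 12507704, minus strand, ENSMUSG00000023828.3), the low-affinity carrier ascribed to astrocytes, also had a value of 16, or 3.55 per kilobase, above 3.07% of detected genes. Over all rows, undetected ones included, 35.6% had a lower value than Slc22a3. It overlaps the plasminogen gene Plg on the opposite strand over 420 exon bases (9.31% of its exons), and Plg was listed at 0. The carrier of non-neuronal uptake thus lay with the neuronal transporters in level and not with the breakdown enzymes.

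The breakdown enzymes were unequal, with Maoa and Aldh1a1 above the median of detected genes and Maob below it. Maoa, which prefers serotonin and noradrenaline but also oxidises dopamine, lies on chromosome X (16619698 to 16687818, plus strand, ENSMUSG00000025037.6) and had a value of 2279, or 82.7 per 1000000 of the summed values. At 547 per kilobase it exceeded 83.8% of detected genes. Maob, the form associated with astrocytes and serotonin neurons, lies next to it on the minus strand (16709282 to 16817366, ENSMUSG00000040147.14), with 21463 bases between the ends of the genes, and had a value of 69, or 24.7 per kilobase, above 22.8% of detected genes. Maoa was thus 22.1-fold higher than Maob per kilobase, and 19.1-fold higher when lengths were those of the longest transcript. Aldh1a1, a cytosolic enzyme that oxidises DOPAL and retinaldehyde and that also marks a ventral tier of midbrain dopamine neurons, lies on chromosome 19 (20492715 to 20643465, plus strand, ENSMUSG00000053279.8). It had a value of 907, or 184 per kilobase, above 63.3% of detected genes.

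**Figure D1:**
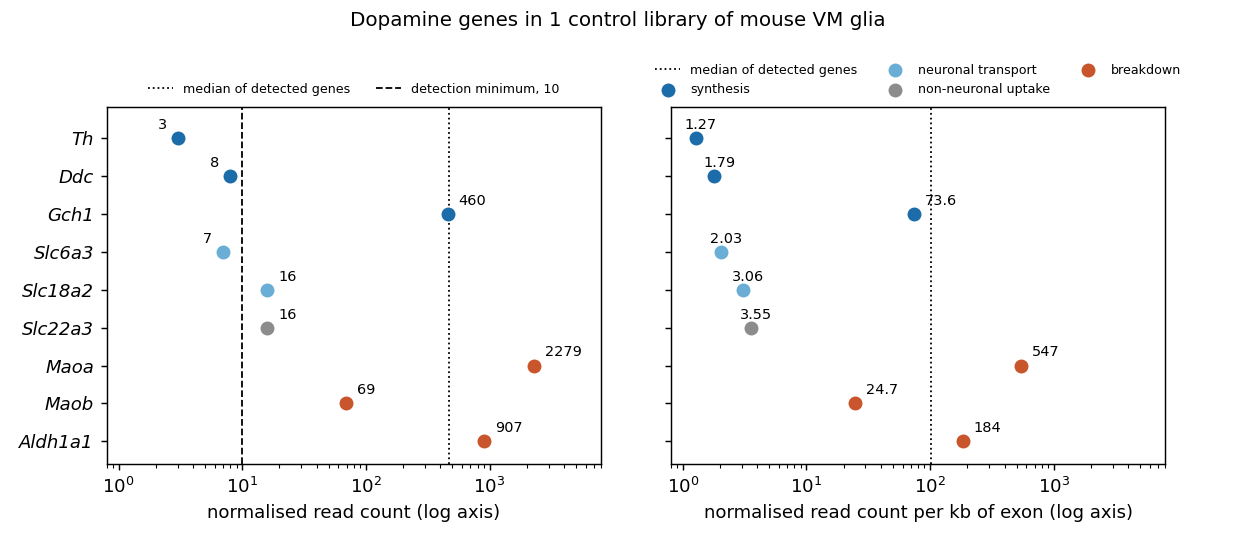
Normalised read counts of the 9 genes in the control library, as deposited (left) and per kilobase of annotated exon (right), on log axes, with 1 point per gene coloured by role. Th, Ddc and Slc6a3 lie left of the detection minimum of 10 (dashed), and Maoa and Aldh1a1 lie right of the medians of detected genes (dotted, 469 on the left and 102 on the right).

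Reads of close relatives could be shared between such genes, so the sequences were compared. Maoa and Maob were identical at 72.0% of 1544 aligned coding bases, and their longest identical run was 35 bases. Of all 50-base words in Maob transcripts, none occurred in another gene. Among Maoa transcripts 3.98% of such words did, most often in Gm26691. The lengths of the reads were not given in the sources used here. With 10 coding bases on each side, the run spans exons 11 and 12 of both genes. This stretch lies at chrX:16680862-16682245 (Maoa) and chrX:16716439-16718265 (Maob), introns included. It is shown to let the reader see how far the genes can be told apart. Capitals mark the bases that differ.
Maoa: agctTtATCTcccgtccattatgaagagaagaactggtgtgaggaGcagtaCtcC
Maob: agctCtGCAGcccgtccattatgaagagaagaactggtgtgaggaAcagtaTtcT

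Aldh1a1 has a closer relative, Aldh1a7, 49487 bases away on the other strand of chromosome 19. The coding sequences were identical at 91.9% of 1501 aligned bases, with a longest run of 100 bases across exons 7 to 9 (chr19:20624825-20630681 for Aldh1a1 and chr19:20708319-20714681 for Aldh1a7). Of the 50-base words in Aldh1a1 transcripts, 3.06% also occurred in Aldh1a7. The run is shown with its flanks for the same reason, with differing bases in capitals.
Aldh1a1: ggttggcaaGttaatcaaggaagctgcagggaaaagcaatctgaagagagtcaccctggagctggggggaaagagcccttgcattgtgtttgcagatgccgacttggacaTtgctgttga
Aldh1a7: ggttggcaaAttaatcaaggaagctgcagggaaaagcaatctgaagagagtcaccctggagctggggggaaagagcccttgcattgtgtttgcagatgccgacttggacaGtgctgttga

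Aldh1a7 had a value of 28, so that Aldh1a1 was 13.6-fold higher per kilobase, and 28.4-fold higher with the longest transcripts. Within the ALDH1A family, Aldh1a2 had a value of 31 and Aldh1a3 of 33. Aldh1a1 was the highest of these 4 genes per kilobase, followed by Aldh1a2 at 13.7, Aldh1a7 at 13.6 and Aldh1a3 at 7.15. The other members had more distant relatives. Th was identical to Tph1 at 66.3% of aligned coding bases, Slc6a3 to Slc6a2 at 71.2%, Slc18a2 to Slc18a1 at 70.1% and Slc22a3 to Slc22a2 at 63.7%. Transcripts of Th and Slc6a3 had no 50-base word in common with another gene, and the share was 0.563% for Ddc, 0.0323% for Gch1, 1.14% for Slc18a2 and 8.27% for Slc22a3, whose shared words lay in Plg.

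Ordered per kilobase, the genes ran from Maoa through Aldh1a1, Gch1, Maob, Slc22a3, Slc18a2, Slc6a3 and Ddc to Th. With 1 library the spread of each level is unknown, so neighbours in this order cannot be called different. The first 4 places and the last were held by the same genes with the longest transcript and with the mean length of protein-coding transcripts. Ddc moved from the eighth to the fifth place under both, at 3.96 and 4.78 per kilobase. The distance between Maoa and Aldh1a1 also depended on length. It was 2.98-fold with the union of exons, 1.42-fold with the longest transcript and 1.05-fold with the mean protein-coding transcript, because GENCODE gives Aldh1a1 6 transcripts with a union of 4937 bases and Maoa 1 transcript of 4167 bases.

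**Figure D2:**
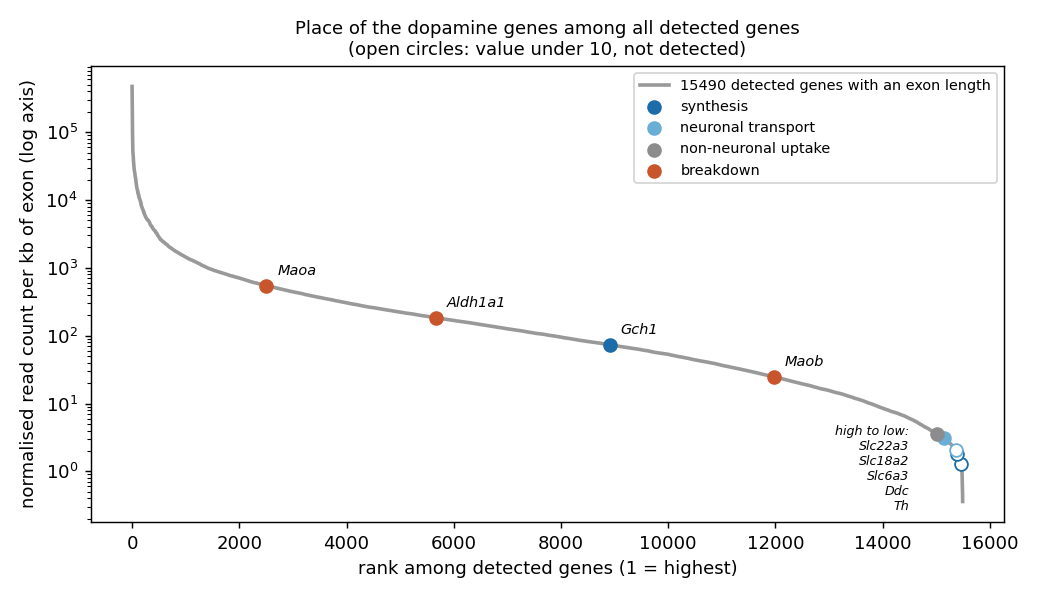
Normalised read count per kilobase of exon (log axis) against rank for the 15490 detected genes with an exon length (grey line), with the 9 genes placed on it by level. Maoa, Aldh1a1, Gch1 and Maob are spread along the curve from 547 to 24.7 per kilobase, and the other 5 genes crowd its lower end between 3.55 and 1.27. Open circles mark genes under the detection minimum.

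Synthesis genes were then set against breakdown enzymes, both named by role and not by the cells that carried them. The median of Maoa, Maob and Aldh1a1 was 184 per kilobase and that of Th, Ddc and Gch1 was 1.79, a ratio of 102. The groups overlapped, since Gch1 at 73.6 was above Maob at 24.7. The median of the breakdown enzymes was the level of Aldh1a1, and that of the synthesis genes was the level of Ddc. The value of Ddc, 8, was under the detection minimum, so the size of the ratio rests on a low value. When Th, Ddc, Slc6a3 and Slc18a2 were grouped as dopamine neuron genes, with a median of 1.91, the ratio was 96.2. These groups did not overlap, the highest of the 4 genes being Slc18a2 at 3.06, but Gch1, the source of the overlap, was left out by choice. With Aldh1a1 moved from the breakdown enzymes to the dopamine neuron genes, the ratio was 141. The groups then overlapped, since Aldh1a1 at 184 exceeded Maob. Breakdown enzymes held 89.9% of the summed level of the 9 genes per kilobase, of which Maoa alone held 65.1%, and the 4 dopamine neuron genes held 0.969%. No test was run, since genes are not replicates of a condition.

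**Figure D3:**
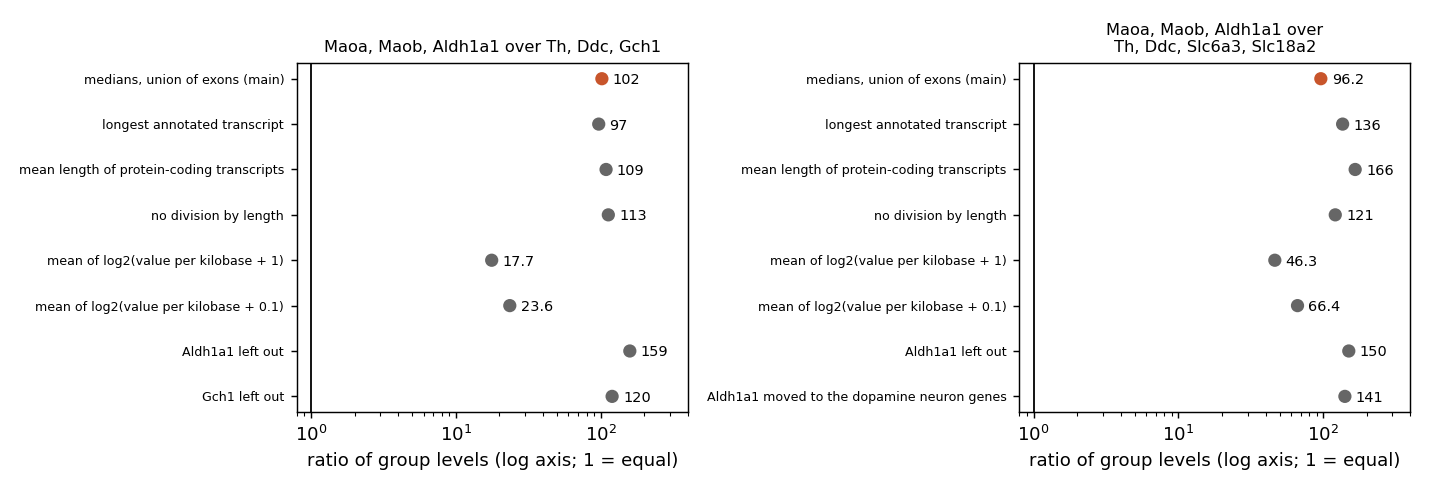
Ratio of the level of the breakdown enzymes to that of the synthesis genes (left) and of the dopamine neuron genes (right), on log axes, under the main setting (orange) and each alternative (grey). Every point lies right of 1 (vertical line), from 17.7 to 159 on the left and from 46.3 to 166 on the right.

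The wider pathways were read from lists of the same roles. For tetrahydrobiopterin, 8 of 8 genes were detected, against 67.2% of all rows, with a median of 99.9 per kilobase. Qdpr, encoding the dihydropteridine reductase that recycles the cofactor, was highest at 791, followed by Pcbd2 at 690 and Spr, encoding sepiapterin reductase, at 253. Gchfr, encoding the feedback regulator of GTP cyclohydrolase, was at 102, the pterin dehydratase gene Pcbd1 at 42.8 and Pts, encoding the enzyme between Gch1 and Spr, at 41.6. The level of the median cofactor gene was thus close to that of the median detected gene. Of 8 genes for aromatic amino acid hydroxylases and other monoamine synthesis, 1 was detected, the histidine decarboxylase gene Hdc, at a value of 73, or 11.4 per kilobase. Tph1 had a value of 7, Th and Ddc had those given above, and Tph2, Dbh and Pnmt were listed at 0.

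Of 9 monoamine transporters, 5 were detected, against 67.2% of all rows. The highest value among the 9 was 62, while the median detected gene had a value of 469. The vesicular transporter of endocrine cells Slc18a1 had a value of 62, or 11.5 per kilobase, against 3.06 per kilobase for its relative Slc18a2. The noradrenaline transporter Slc6a2 had a value of 45, or 7.15 per kilobase, against 2.03 for its relative Slc6a3. Slc29a4, encoding the plasma membrane monoamine transporter PMAT, had a value of 11, or 3.84 per kilobase, which was 1.08 times the level of Slc22a3. Slc22a2 had a value of 2, and the serotonin transporter Slc6a4 was listed at 0. The list median was 3.06 per kilobase against 102 for all detected genes.

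Of 10 breakdown enzymes, 10 were detected, against 67.2% of all rows. Maob was the lowest of them, at a value of 69, while the median detected gene had a value of 469. The aldehyde reductase gene Akr1a1, whose enzyme reduces aldehydes to alcohols, was highest at 6995 per kilobase, above 98.7% of detected genes. Mitochondrial Aldh2, which oxidises DOPAL, was at 1504, which was 8.19-fold higher than Aldh1a1 (5.18-fold with the longest transcripts). Aldh3a2 was at 218, the sulfotransferase gene Sult1a1 at 187, the aldose reductase gene Akr1b3 at 60.8 and Aldh1b1 at 44.0 per kilobase. The list median was 202 per kilobase.

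**Figure D4:**
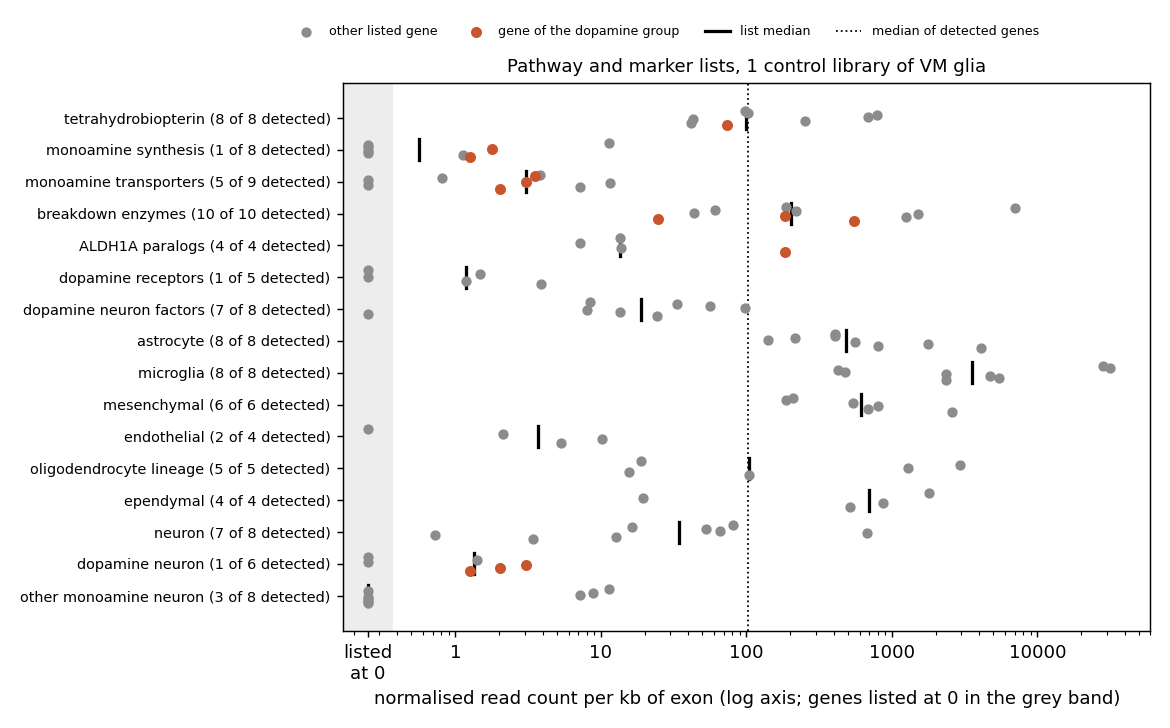
Normalised read count per kilobase of exon (log axis) for each gene of the pathway and marker lists, with genes of the dopamine group in orange, other genes in grey, list medians as black bars and genes listed at 0 in the grey band. Of the breakdown enzymes (median 202), 7 of 10 lie at or above the median of detected genes (dotted, 102), while monoamine synthesis (0.567), monoamine transporters (3.06) and dopamine neuron markers (1.35) lie far below it.

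Marker genes of the cell types were read beside these levels. For dopamine neurons 1 of 6 markers was detected, Slc18a2, against 67.2% of all rows. Of the others, Th and Slc6a3 are members themselves, Slc10a4 had a value of 3, and Pitx3 and Chrna6 were listed at 0, so most defining markers were at or near 0. Among 8 transcription factors of midbrain dopamine neurons and their progenitors, 7 were detected, with a median of 19 per kilobase. The engrailed genes En1 and En2, which pattern the midbrain, were at 98.7 and 56.2 per kilobase, and the forkhead factors Foxa1 and Foxa2 at 33.4 and 8.44. Nr4a2 was at 24.4 per kilobase, Lmx1a at 13.5 and Lmx1b at 7.99, and Pitx3 was the factor listed at 0. The 7 detected factors were above the 4 dopamine neuron genes, whose highest level was 3.06 per kilobase, while Pitx3 was below all 4. The factors were picked by the detection minimum and the 4 genes were not, so this order was partly set by that choice. Of the 4 genes only Slc18a2 was detected, at 3.06 per kilobase, against 7.99 for Lmx1b, the lowest detected factor. Of 5 dopamine receptors, only Drd1 was detected, at a value of 14, with Drd4 at 5, Drd2 at 3, and Drd3 and Drd5 listed at 0.

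General neuronal markers were detected in 7 of 8 cases, against 67.2% of all rows. Their median was 34.5 per kilobase, and 1 of the 8, Stmn2 at 679, lay above the median of detected genes. Astrocyte markers were detected in 8 of 8 cases (median 484 per kilobase), microglia markers in 8 of 8 (3549) and mesenchymal markers in 6 of 6 (612). Oligodendrocyte lineage (5 of 5, median 104) and ependymal markers (4 of 4, median 693) were also present, while endothelial markers were detected in 2 of 4 cases (median 3.71). Gfap, the highest of the 8 astrocyte markers, was 7.47-fold higher than Maoa per kilobase (11.9-fold with the longest transcripts) and 165-fold higher than Maob. The lowest astrocyte marker was at 142 per kilobase, and Maoa at 547 was above the median of these markers, while Maob at 24.7 was below all of them. Maoa was below the medians of the microglia, mesenchymal and ependymal markers. Maob was also below every microglia and mesenchymal marker, but not below all ependymal, oligodendrocyte lineage, endothelial or neuronal markers. Which of these cells carried Maoa, Maob, Aldh1a1 or Gch1 was not tested.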

How the data were processed

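RNA from 1 culture of VM-derived mixed glia was sequenced (SMARTer mRNA library). In the study's methods, reads were trimmed at a quality of 20, mapped to GRCm38/mm10 with STAR and counted on exons of RefSeq Release 105 genes with HTSeq-count, after which FPKM were also calculated. The submitters' processing notes name TopHat and edgeR instead, with no version or role. The values deposited by the authors are called normalised read counts. Their normalisation is not given in the sources used here, so these deposited whole numbers were treated as a score and not as raw counts, and no counting interval or floor is given. They summed to 27569507, which stands in for depth and is too high for a table of FPKM, but whether gene length entered their normalisation is not given, so ratios without division by length were also computed.

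A gene at 10 or more was called detected. Levels between genes were compared per kilobase of the union of GENCODE M21 exons (GRCm38), which 22907 rows (98.4%) had by symbol or synonym. Relatives were compared by global alignment of coding sequences (match 2, mismatch -2, gap opening -6, extension -1) and by exact 50-base words in all annotated transcripts. Alternatives were other minima (1, 3 and 100), other lengths, means of log2 values with pseudocounts of 1 and 0.1, totals without Rn45s or the 10 highest genes, and groups without Aldh1a1 or Gch1. The members, lists and comparisons were chosen with earlier results of these data known. Genes were named by rule: the 9 members, Aldh1a7 as a near-identical relative, every gene of pathway lists of no more than 9, and the 3 highest, the lowest and any at 0 of the list of 10. Some genes of these lists, which the counts and medians include, are not reported here. Cell type markers are given by counts and medians. The other breakdown enzymes, Gfap, Stmn2, Plg, Gm29261 and Gm26691 were named after their values or matches were seen. Python 3.11.15, numpy 2.4.6, pandas 2.3.3, Biopython 1.88 and matplotlib 3.10.9 were used.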

Additional observations from a re-analysis of the deposited data

How the results depend on the processing

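The lack of a replicate limits every value here to this library, and values of 3 to 16 are the least certain. With a minimum of 1 or of 3, 9 of the 9 genes were detected, and with 100 it was 3 (Maoa, Aldh1a1 and Gch1). The share of all rows at 3 or at 100 was not computed. The ratio of breakdown to synthesis genes stayed above 1 under all 7 alternatives and the ratio to dopamine neuron genes under all 7, and without division by length they were 113 and 121. The first moved from 102 to 17.7 with the mean of log2(value per kilobase + 1), to 23.6 with a pseudocount of 0.1 and to 159 without Aldh1a1. The second moved from 96.2 to 166 with the mean protein-coding transcript length, to 46.3 with the mean of log2(value per kilobase + 1) and to 150 without Aldh1a1. In the first ratio the mean of log2 values gives Gch1 weight that the median does not. Gch1 is in neither group of the second ratio, which was 66.4 with a pseudocount of 0.1. The 18 values per 1000000 recomputed without Rn45s or without the 10 highest genes each moved by less than 1.5-fold. Of 9 shares of detected genes under a member, 5 moved by less than 1.5-fold when values were taken per kilobase, as did 3 of 9 when all rows replaced the detected genes.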

Other observations

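Genes of other monoamine neurons were read as a list of 8, of which 3 were detected, against 67.2% of all rows. Hdc, for histamine synthesis, was at 11.4 per kilobase of exon, Phox2a, a factor of noradrenaline neurons, at 8.85 and Slc6a2, for noradrenaline uptake, at 7.15. The levels of Th, Ddc, Slc6a3 and Slc18a2 ran from 1.27 to 3.06 per kilobase. The defining genes Tph2, Fev and Slc6a4 of serotonin neurons and Dbh of noradrenaline neurons were listed at 0. Which cells carried the 3 detected genes was not tested.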
